A study of Mus musculus with 2 samples.

Results

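The type 3 cytokine axis was described through 7 genes, Il22, Il17a, Il17f, Il23r, Il1r1, Tmem176a and Tmem176b, of the 18786 gene symbols in the deposited table. They were chosen by name and not by a cut on their values, though with earlier results of these data known. All 7 were present in the table. Each was followed through its level, the share of cells holding it and its overlap with cells holding Gata3, Il13 or Areg, genes of type 2 lymphocytes.

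Single innate lymphoid cells (ILCs) of C57/BL6 mouse skin were profiled at postnatal days 1 and 14, and each of these days has 1 library. Collagenase A released the cells, the CD45+, Lin-, Thy1.2+ fraction was enriched by flow cytometry, and libraries came from 10x Genomics 5' v1 chemistry. No genotype or treatment is given in the labels, and neither is the number of mice behind a library. Values are counts of UMIs, the tags that mark each captured RNA molecule so that its amplified copies add 1 count.

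Cell names carry a suffix that splits the table into cell set 1 and cell set 2. Neither suffix matches a label of a day, so the days were not compared and the table was treated as 1 pooled sample. After cells with more than 10% mitochondrial UMIs were left out, 1441 cells stayed in set 1 (median depth 10683 UMIs) and 3508 in set 2 (median depth 4849 UMIs). There were 4 barcodes that occurred in both sets. Thy1 and Ptprc, which encode the sorted antigens Thy1 and CD45, were present in both sets, in set 1 at 210 and 375 CPM (UMIs per 1000000 UMIs of the set), in set 2 at 493 and 672 CPM. Because the sets differ in depth, shares of cells are also given after each cell was thinned at random to 2000 UMIs, which left 1426 and 3259 cells.

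Type 3 lymphocytes answer IL-23 and IL-1 from myeloid and epithelial cells by secreting IL-22 and IL-17. Il23r and Il1r1 encode the receptor chains that receive those signals. In skin, IL-22 acts on keratinocytes in barrier repair and IL-17A and IL-17F act in neutrophil recruitment and antimicrobial defence, while Gata3, Il13 and Areg belong to group 2 ILCs (ILC2).

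The genes lie at 5 places in the mouse genome (GRCm38, GENCODE annotation, protein-coding genes). Il17a (chr1:20730905-20734496, plus strand) and Il17f (chr1:20777146-20790617, minus strand) are neighbours with 42649 bases between them. Il1r1 lies on the same chromosome (chr1:40225080-40317257, plus strand), Il22 at chr10:118204942-118210047 on the plus strand and Il23r at chr6:67422932-67491855 on the minus strand. Tmem176b (chr6:48833818-48841496, minus strand) and Tmem176a (chr6:48840919-48847071, plus strand) overlap head to head over 578 bases. Reads from that stretch cannot be told apart without a stated strand setting.

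Promoter sequences are shown for the 3 members in which the letters AGGTCA, a nuclear receptor half-site, were found on either strand of the window from 250 bases before to 50 after the RefSeq start (GRCm38.p6). They are printed here up to the base before the start, read 5′ to 3′ along the gene, except that Il17f is printed for 224 of the 250 bases because the rest lies in an annotated exon, and the capitals mark AGGTCA or, where it lies on the opposite strand, TGACCT. The RefSeq start of Il17f lies inside its longer GENCODE span.
Il17a, chr1:20730655-20730904, plus strand: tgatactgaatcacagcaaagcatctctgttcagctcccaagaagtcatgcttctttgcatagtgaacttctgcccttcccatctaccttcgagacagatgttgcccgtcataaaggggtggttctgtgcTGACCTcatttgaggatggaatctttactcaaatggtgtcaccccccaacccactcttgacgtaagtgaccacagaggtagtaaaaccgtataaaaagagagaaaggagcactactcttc
Il17f, chr1:20784271-20784494, minus strand: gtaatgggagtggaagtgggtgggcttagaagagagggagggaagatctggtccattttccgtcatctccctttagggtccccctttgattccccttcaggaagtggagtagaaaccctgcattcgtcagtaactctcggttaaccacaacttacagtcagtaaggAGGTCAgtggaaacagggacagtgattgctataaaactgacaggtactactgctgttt
Il23r, chr6:67491856-67492105, minus strand: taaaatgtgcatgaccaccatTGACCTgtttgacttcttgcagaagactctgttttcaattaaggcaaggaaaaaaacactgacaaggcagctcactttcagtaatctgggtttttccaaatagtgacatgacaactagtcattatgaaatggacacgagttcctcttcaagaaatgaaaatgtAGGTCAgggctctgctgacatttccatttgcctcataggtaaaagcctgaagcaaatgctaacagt

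The letters AGGTCA occurred in 16.3% of all 32851 promoter windows, so a match in a single gene is common. Of the other letters searched on both strands, TTCNNNGAA (bound by STAT factors) occurred in 8.30% of windows and the NF-kB motif in 0.155%, and neither was found in a window of the 7 genes. These matches describe letters in a window.

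The 7 genes did not move as 1 block between the cell sets. Il22, Il23r and Il1r1 stood higher in set 1, while Il17a, Il17f, Tmem176a and Tmem176b stood higher in set 2, as the plot of CPM by gene and set shows. On the scale of CPM + 10, Tmem176a and Tmem176b were at least 2-fold higher in set 2, where 1.94% of 12026 genes were, and Il22 was at least 2-fold lower, where 1.85% were. Without cycling cells, which made up 34.8% of set 1 and 5.79% of set 2, the ratio on this scale fell to 1.86 for Tmem176a, which ends its 2-fold call, and to 2.02 for Tmem176b. Il17a, Il17f, Il23r and Il1r1 lay between these limits. At 7.99 and 5.93 CPM in set 1, Il23r and Il1r1 could not have reached the lower limit even if absent from set 2. For these receptors the scale therefore says nothing about a 2-fold fall. With 1 library per day and no map of cells to days, these ratios carry no replicate error.

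**Figure D1:**
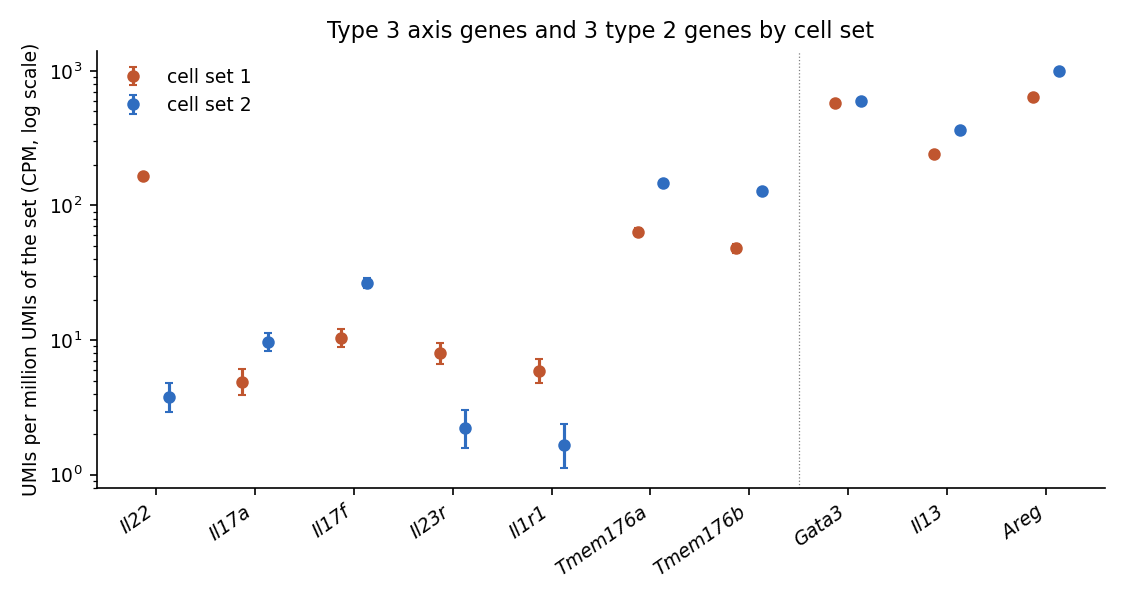
The level of each axis gene and of Gata3, Il13 and Areg in cell set 1 and cell set 2, as CPM on a log axis, with exact Poisson 95% intervals. Il22 stands at 166 CPM in set 1 and at 3.77 CPM in set 2, while Tmem176a and Tmem176b stand higher in set 2, and heights of different genes are not compared.

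Il22, the cytokine that acts on keratinocytes, had 2736 UMIs in set 1, which is 166 CPM (160 to 172, 95% interval of counting error). In set 2 it had 68 UMIs, or 3.77 CPM (2.93 to 4.78). The level in set 1 was 43.9 times that in set 2 (34.5 to 56.7). Both the number of cells and the UMIs per cell differed. In set 1, 100 cells (6.94%) held Il22, with a mean of 27.4 UMIs each, and in set 2, 28 cells (0.798%) held it, with a mean of 2.43.

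A few cells held most of the Il22 of set 1. The highest cell held 475 UMIs, 17.4% of the total, the next held 286, and 6 cells held 50% of all Il22 UMIs. The 36 cells with at least 10 UMIs held 94.5% of them. In set 2 the highest cell held 18 UMIs and no other cell held more than 6. After thinning, 3.86% of the cells of set 1 (2.92 to 4.99) and 0.338% of set 2 (0.169 to 0.603) held an Il22 UMI.

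The cells with at least 3 UMIs of Il5 plus Il13, called type 2 cytokine cells here, stand for cells that should lack Il22. Their thinned share was 0.873% in set 1 and 0.0996% in set 2, below the share over all cells in each set, at unthinned median depths of 12310 and 5659 UMIs. Il22 shares most of its sequence with a copy, Iltifb (chr10:118289629-118295038, minus strand), whose transcript is 97.3% identical over 1111 aligned bases. The table lists 18 Iltifb UMIs in set 1 and 3 in set 2, and the split of reads between the copies is uncertain.

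Il17a and Il17f, neighbouring genes of the IL-17 family, were rarer and went the other way. Il17a had 81 UMIs in set 1, or 4.90 CPM (3.90 to 6.10), and 175 in set 2, or 9.71 CPM (8.32 to 11.3), a ratio of set 2 to set 1 of 1.98 (1.51 to 2.61). Il17f had 172 UMIs in set 1, or 10.4 CPM (8.92 to 12.1), and 478 in set 2, or 26.5 CPM (24.2 to 29.0), a ratio of 2.55 (2.13 to 3.05).

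The higher IL-17 levels of set 2 came with more UMIs per holding cell and not with a larger share of cells. Il17f was held by 66 cells of set 1 (4.58%) with a mean of 2.61 UMIs, and by 75 cells of set 2 (2.14%) with a mean of 6.37. Thinning brought these shares to 1.47% (0.914 to 2.24) in set 1 and 1.35% (0.983 to 1.81) in set 2, and the intervals overlap. In set 2, 14 cells with at least 10 UMIs held 73.6% of the Il17f UMIs, and the highest held 61. In set 1 the highest cell held 21 UMIs, and 3 cells held at least 10.

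Il17a was held by 25 cells of set 1 (1.73%) and 32 of set 2 (0.912%), and the thinned shares were 0.771% (0.386 to 1.38) and 0.675% (0.424 to 1.02). In each set 5 cells held 50% of its UMIs, and the highest cell held 14 UMIs in set 1 and 33 in set 2. The thinned share of Il17f in the type 2 cytokine cells was 0.655% in set 1 and 1.39% in set 2, and in set 2 this was not below the share over all cells. By share of cells alone, Il17f in set 2 was therefore not set apart from the type 2 cytokine cells. These cells held Il17f at 27.5 CPM, beside 26.5 CPM over all cells of set 2, so they give no background level for it there. The Il17f of those type 2 cytokine cells lay in few of them, with 176 UMIs in 21 of 1017 cells and 41 in the highest.

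**Figure D2:**
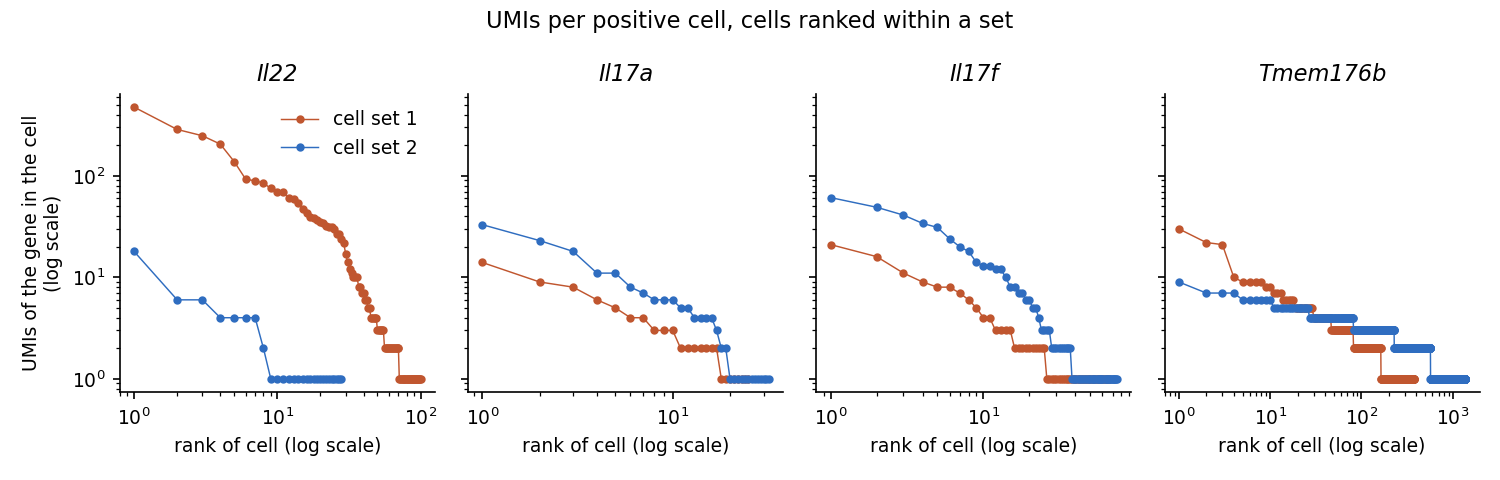
UMIs of Il22, Il17a, Il17f and Tmem176b in each cell that holds the gene, against the rank of the cell within its set, both on log axes. Il22 in set 1 starts at 475 UMIs and drops steeply, Il17f starts higher in set 2 (61 UMIs) than in set 1 (21 UMIs), and Tmem176b lies mostly at 1 to 3 UMIs over many cells.

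Il23r, the receptor chain specific to IL-23, had 132 UMIs in set 1, or 7.99 CPM (6.69 to 9.48), and 40 in set 2, or 2.22 CPM (1.59 to 3.02). Il1r1, the signalling receptor of IL-1, had 98 UMIs in set 1, or 5.93 CPM (4.82 to 7.23), and 30 in set 2, or 1.66 CPM (1.12 to 2.38). The level in set 1 was 3.60 times that in set 2 for Il23r (2.51 to 5.27) and 3.57 times for Il1r1 (2.35 to 5.56). Summed over the thinned cells of 1 draw, the Il23r ratio of set 2 to set 1 moved from 0.278 to 0.158, in the same direction, while 10 further draws together gave 0.272.

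Both receptors were spread over cells at 1 or a few UMIs. In set 1, 76 cells (5.27%) held Il23r with at most 7 UMIs each, and in set 2, 32 cells (0.912%) held it with at most 2. Il1r1 was held by 70 cells of set 1 (4.86%) and 29 of set 2 (0.827%), with at most 6 and 2 UMIs. After thinning, Il23r was held by 2.17% of set 1 (1.48 to 3.07) and 0.399% of set 2 (0.213 to 0.681). These are 31 and 13 cells in the draw used, where 10 further draws gave 24.5 and 16.3 cells on average, a narrower gap. For Il1r1 the thinned shares were 1.26% (0.750 to 1.99) and 0.368% (0.190 to 0.642). The thinned share of Il23r in the type 2 cytokine cells was 0% in both sets, with 0 of 458 and 0 of 1004 cells, where a count of 0 allows up to 3.

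Tmem176a and Tmem176b encode related membrane proteins of intracellular vesicles that are known from type 3 lymphocytes and from dendritic cells. Tmem176a had 1049 UMIs in set 1, or 63.5 CPM (59.7 to 67.5), and 2636 in set 2, or 146 CPM (141 to 152), a ratio of set 2 to set 1 of 2.30 (2.14 to 2.48). Tmem176b had 791 UMIs in set 1, or 47.9 CPM (44.6 to 51.4), and 2299 in set 2, or 128 CPM (122 to 133), a ratio of 2.66 (2.45 to 2.89).

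These were the broadly held genes of the axis. Tmem176a was in 485 cells of set 1 (33.7%) and 1465 of set 2 (41.8%), and Tmem176b in 376 (26.1%) and 1378 (39.3%). After thinning the gap between the sets was wider, at 10.4% (8.84 to 12.1) against 23.5% (22.1 to 25.0) for Tmem176a and 8.20% (6.83 to 9.75) against 21.8% (20.4 to 23.3) for Tmem176b. The type 2 cytokine cells of set 2 held them in 19.2% and 16.3% of thinned cells, so neither gene was confined to cells without type 2 cytokines.

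Cells with an axis gene held Gata3, the transcription factor of ILC2, less often than the other cells of set 1. The level of Gata3 itself was 577 CPM in the cells of set 1 and 593 CPM in those of set 2. Without thinning, Gata3 was in 69 of 100 Il22 cells of set 1 (69.0%) against 83.7% of cells without Il22. It was in 35 of 76 Il23r cells (46.1%) against 84.7%, in 35 of 70 Il1r1 cells (50%) against 84.3%, and in 39 of 66 Il17f cells (59.1%) against 83.8%. For Tmem176a it was in 75.3% against 86.4%, for Tmem176b in 70.7% against 86.9%, and for Il17a in 17 of 25 cells (68.0%) against 82.9%. Most cells with an axis gene still held Gata3 in 5 of these 7 comparisons, and Il23r and Il1r1 cells did so in 50% or fewer.

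After thinning, the odds of holding Gata3 in the cells with a gene, over the odds in cells without it, were at most 0.5 for 5 of the 5 axis genes with at least 20 positive cells in set 1, where 3.14% of 7708 genes were. Means over 10 further draws gave odds ratios of 0.28 for Il22, 0.21 for Il17f, 0.14 for Il23r, 0.49 for Tmem176a and 0.37 for Tmem176b. Il17a and Il1r1, with 11 and 18 thinned cells, were at 0.32 and 0.21. Gata3 was below even odds for all 7 genes in each of these 10 draws of set 1.

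For the 3 cytokines of set 2 the overlap with Gata3 was close to that of other cells, and for the receptors it was lower. Without thinning, Gata3 was in 20 of 28 Il22 cells (71.4%) against 70.1% of cells without Il22, in 22 of 32 Il17a cells (68.8%) against 70.1%, and in 50 of 75 Il17f cells (66.7%) against 70.2%. Il23r cells held Gata3 in 15 of 32 (46.9%) against 70.3%, and Il1r1 cells in 16 of 29 (55.2%) against 70.2%. Over the further thinning draws the odds ratio of Il1r1 was 0.54 on average. For Tmem176a the shares were 65.7% and 73.3%, and for Tmem176b 67.3% and 71.9%. After thinning, 0 of the 4 axis genes with at least 20 positive cells had an odds ratio of at most 0.5, where 1.33% of 9068 genes did. The difference between the sets was not tested.

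A single random thinning draw does not settle the overlap of the sparse genes. In the draw used, 7 of 13 Il23r cells of set 2 held Gata3 (53.8%), whereas the 10 further draws gave 25.8% on average, with odds ratios from 0.10 to 0.69. For Il17f in set 1 the draw used gave 28.6% and the further draws 19.1%, and for Il22 in set 2 they gave 36.4% and 47.5%. No overlap is read from the single draw for Il22 and Il23r in set 2. The counts of axis genes with at least 20 positive cells do come from the draw used, and they include Il17f in set 1. As means over the further draws, its odds ratio in set 1 was 0.21 for Gata3 and 0.52 for Il13.

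Il13, an effector cytokine of ILC2, was the type 2 gene least often found with Il23r. Without thinning, 4 of 76 Il23r cells of set 1 held Il13 (5.26%, 1.45 to 12.9) against 49.2% of cells without Il23r, and 1 of 32 in set 2 (3.12%, 0.0791 to 16.2) against 44.4%. The Il23r cells were shallower by a small margin, with a median of 9484 UMIs in Il23r cells and 10772 in the others in set 1, and 4414 and 4854 in set 2. Over the further draws the Il13 odds ratio of Il23r cells was 0.15 in set 1 and 0.075 in set 2, and it was below 1 in every draw.

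The other axis genes overlapped with Il13 to different extents. In set 1, Il13 was in 36% of Il22 cells, 28% of Il17a cells, 25.8% of Il17f cells and 14.3% of Il1r1 cells, against 47.2% to 48.6% of the cells without each gene. In the thinned draw used, 5 of 5 axis genes with at least 20 positive cells in set 1 had an Il13 odds ratio of at most 0.5, where 5.57% of genes did. By the means over further draws, Il22, Il23r and Tmem176b stayed below this limit, at 0.43, 0.15 and 0.39. Il17f and Tmem176a did not, at 0.52 and 0.58. With Il1r1, which had fewer than 20 thinned cells in the draw used and a mean of 0.12, 4 of all 7 genes were at most 0.5. In set 2, Il13 was in 42.9% of Il22 cells against 44.0%, in 29.3% of Il17f cells against 44.3%, and in 45.1% of Tmem176b cells against 43.2%. There 0 of 4 genes with at least 20 thinned cells reached an odds ratio of 0.5 or less, where 1.26% of genes did.

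Areg, which encodes the epithelial growth factor amphiregulin, gave a mixed picture. Without thinning, Areg was in 50% of Il22 cells of set 1 against 55.9% of the others, and in 64.0% of Il17a cells against 55.3%. Il23r cells held it less often, with 34.2% against 56.6% in set 1 and 31.2% against 56.0% in set 2. After thinning, 2 of 5 axis genes with at least 20 positive cells had an Areg odds ratio of at most 0.5 in set 1, where 3.68% of genes did, and 0 of 4 in set 2, where 1.9% did. The genes in set 1 were Il23r and Tmem176a, at 0.39 and 0.41 in the draw used but 0.67 and 0.50 as means over further draws, by which 1 of all 7 genes was at most 0.5, Tmem176b at 0.48. Any of Gata3, Il13 and Areg was found, without thinning, in 85.0% of Il22 cells and 69.7% of Il23r cells of set 1, and in 28 of 28 Il22 cells and 18 of 32 Il23r cells of set 2.

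**Figure D3:**
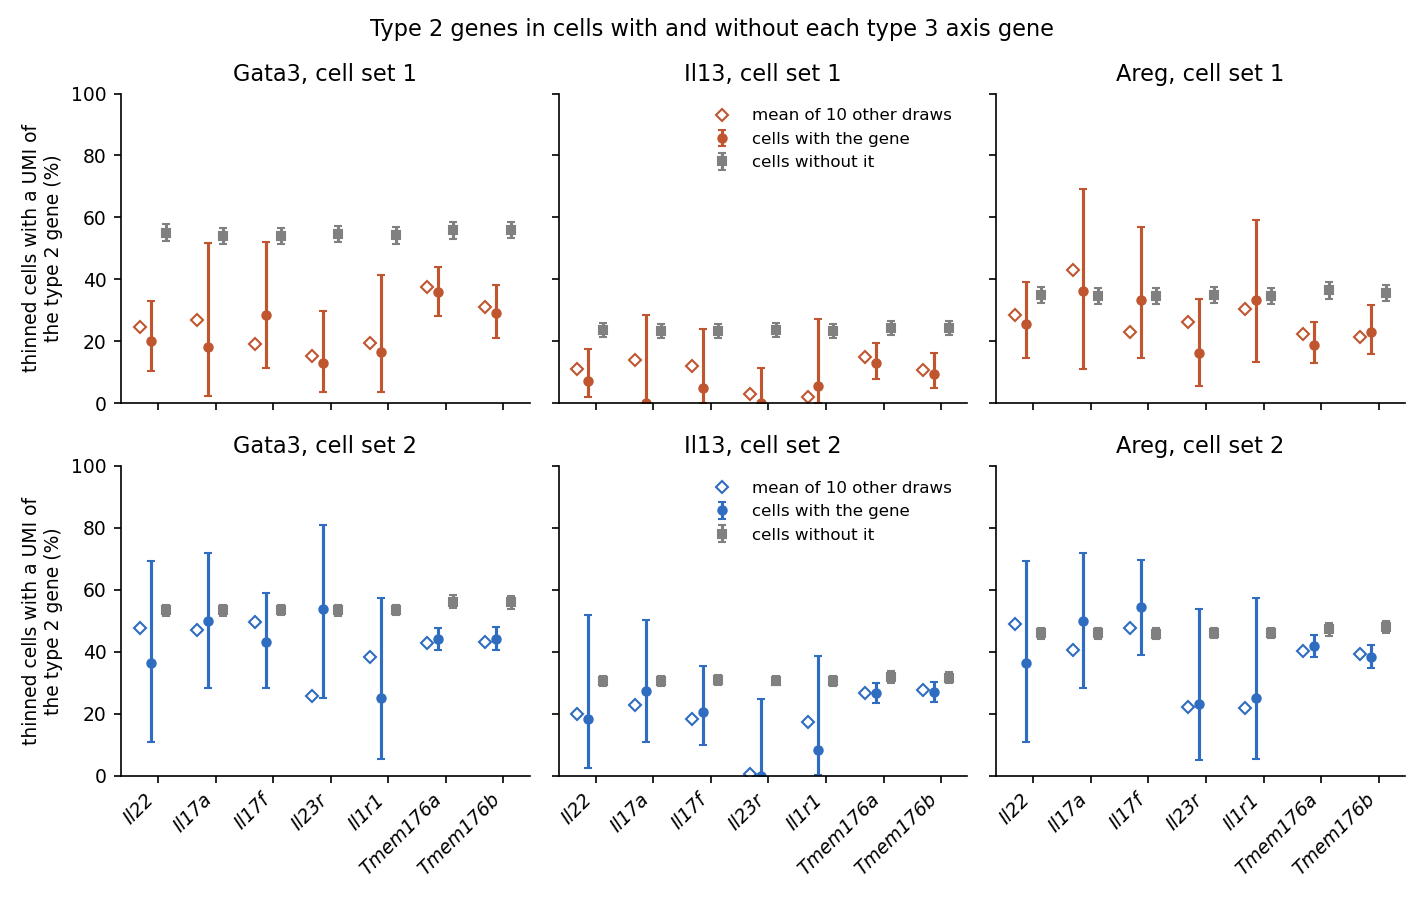
Share of thinned cells (%) with a UMI of Gata3, Il13 or Areg among cells with each axis gene (filled circles, 1 draw, with exact 95% intervals), the mean of 10 other draws (open diamonds), and among cells without the gene (grey squares). In set 1 the Gata3 values of all 7 genes lie below the grey squares, while in set 2 Il23r moves from 53.8% in the draw used to 25.8% on average.

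The cells of set 1 highest in Il22 differed from the others in their type 2 genes. The 30 cells of set 1 with a single Il22 UMI held Gata3 in 80.0% of cells, near the 83.7% of cells without Il22. Their Gata3 level was lower, at 338 CPM against 600 CPM. The 34 cells with 2 to 9 Il22 UMIs held Gata3 in 85.3%, Il13 in 44.1% and Areg in 50%. These shares did not fall step by step with Il22, and the Gata3 level in these 34 cells was 326 CPM. The 36 cells with at least 10 Il22 UMIs held Gata3 in 44.4%, Il13 in 13.9% against 47.7%, and Areg in 47.2% against 55.9%. Gata3 stood at 131 CPM in these 36 cells. Their median depth was 9676 UMIs against 10692, so they were not deeper.

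Other axis genes were frequent in these Il22-high cells. Tmem176b was in 80.6% of them against 23.6% of cells without Il22, Tmem176a in 77.8% against 31.9%, Il23r in 38.9% against 3.88% and Il1r1 in 36.1% against 3.28%. Fcer1g, which encodes an immune receptor signalling chain, was in 86.1% against 11.8%.

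Genes of antigen-presenting cells stood with Il22 as well. The list of 10 myeloid and dendritic cell markers summed to 1457 CPM in the Il22-high cells and 48.0 CPM in cells without Il22, with 5 of 10 detected. A UMI of the list was in 25 of the 36 Il22-high cells. 1 cell held 185 such UMIs, and without it the sum was 988 CPM. H2-Aa was in 10 of the 36 cells (27.8%), against 2.46% of cells without Il22. Lyz2, Csf1r, Itgax, Cd207 and C1qa were at 0 UMIs in the Il22-high cells, and the detected genes were the MHC class II genes H2-Aa, H2-Ab1, H2-Eb1 and Cd74 with Fcgr3. The T cell list summed to 819 CPM against 784 CPM, with 5 of 6 markers detected and Cd3d at 0. The part of other cell types in the Il22 level was not tested.

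The Il17f-high cells of set 2 did not show this low share of Gata3 and Il13. In the 14 cells with at least 10 Il17f UMIs, Gata3 was in 71.4% and Il13 in 57.1%, against 70.2% and 44.3% of cells without Il17f. Il23r was in 0 of the 14 cells, beside 0.903% of cells without Il17f. The 9 ILC2 markers, Gata3, Il13 and Areg among them, summed to 4112 CPM in the 14 cells against 2438 CPM. Without the cell richest in these markers the sum was 3070 CPM. In the 5 cells of set 2 with at least 10 Il17a UMIs, Gata3 was in 1 of 5 (20%). Its level there was 589 CPM, against 592 CPM in cells without Il17a. Il13 and Areg were in 40% of the 5 cells each, and Tmem176a and Tmem176b in 80% each. With 5 cells, these shares do not set them apart from the other cells. Il23r was in 0 of the 5 cells, beside 0.892% of cells without Il17a. In set 1, 3 cells reached 10 Il17f UMIs, all with Gata3, although the 22 cells with 2 to 9 Il17f UMIs held it in 45.5%.

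Gates on genes outside the axis placed the members in cells of different kinds, which are ranges of UMIs and not cell types. Cells with a UMI of both Fcer1g and Tyrobp, 124 cells or 8.61% of set 1, held 1293 CPM of Il22 (1229 to 1359) and 55.8% of its UMIs, against 7.72 CPM in the type 2 cytokine cells. The same cells held 44.1 CPM of Il23r against 0.822, 33.0 CPM of Il1r1 against 1.31, 213 CPM of Tmem176a against 35.8 and 175 CPM of Tmem176b against 17.4. Il17a and Il17f differed less, at 7.62 against 4.11 CPM and 11.9 against 4.77 CPM. Without the cell richest in the gene, Il22 in the Fcer1g and Tyrobp cells stood at 897 CPM and Il17a at 4.28 CPM, while in the type 2 cytokine cells Il17a stood at 1.81, Il17f at 2.96 and Il23r at 0.330 CPM. In set 2, 16 cells passed this gate, with 0 Il22 UMIs. A count of 0 allows up to 3, here 23.5 CPM, which is above the 3.77 CPM over all cells of set 2.

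Ccr6, which encodes a chemokine receptor of lymphoid tissue inducer cells, was in 226 cells of set 1, where Il22 stood at 360 CPM, but 475 of these 967 UMIs lay in 1 cell and the level was 183 CPM without it. Their thinned share of 4.87% lay within the interval of the 3.86% over all cells of set 1. In the 1264 Ccr6 cells of set 2, Il22 stood at 4.46 CPM, with 18 of 32 UMIs in 1 cell and 1.95 CPM without it. Il22 in cycling cells stood at 113 CPM in set 1 and 75.5 CPM without its highest cell, beside 4.31 and 2.16 CPM in set 2. The cells gated on Cd3e or Cd3d UMIs held 32.5 CPM of Il22 in set 1, or 11.1 CPM without the cell that held 37 of these 56 UMIs, and 0 UMIs in set 2, where a count of 0 allows up to 3.

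**Figure D4:**
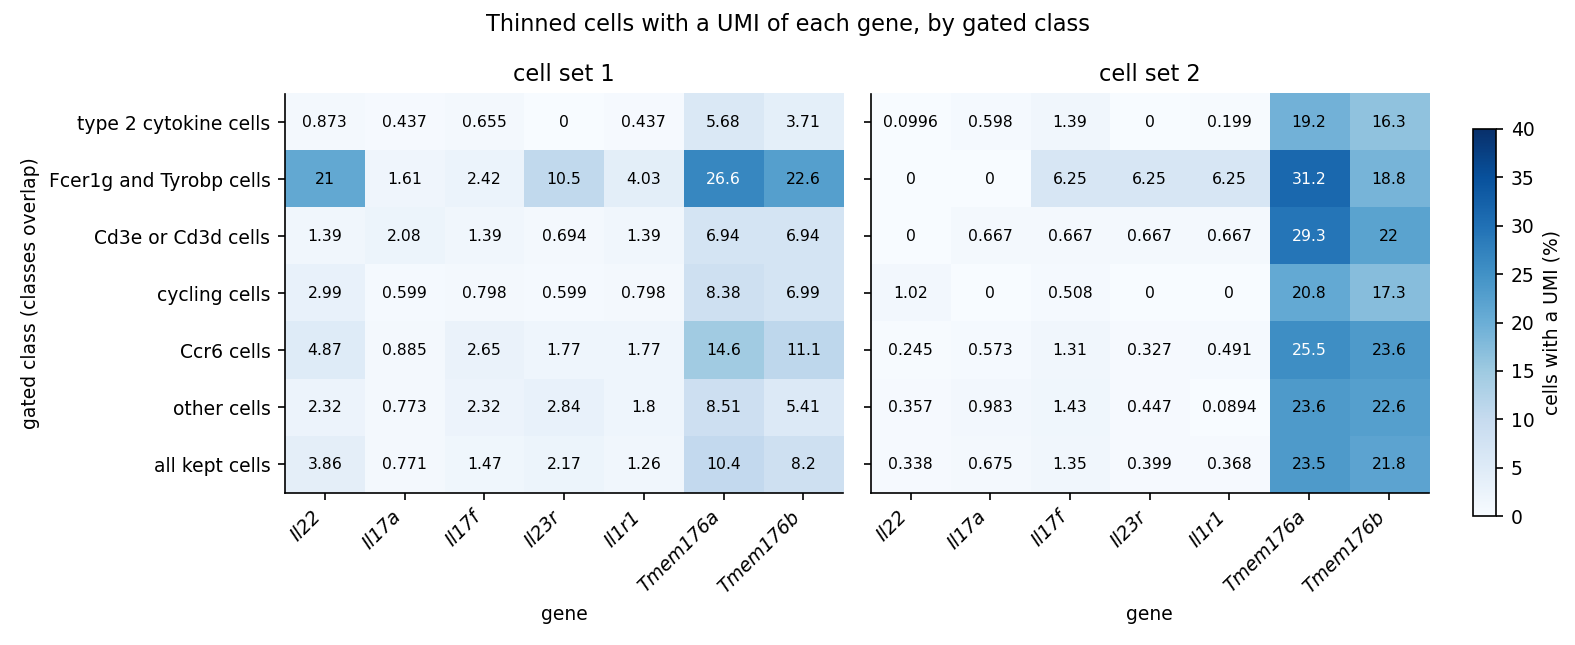
Share of thinned cells (%) with a UMI of each axis gene in cells gated on genes outside the axis, for each cell set, with the share printed in each field. Il22 reaches 21.0% in the Fcer1g and Tyrobp cells of set 1 against 0.873% in the type 2 cytokine cells, while the Tmem176 genes are held broadly in set 2.

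Il23r cells also carried markers listed for gamma delta T cells that make IL-17. The 9 markers in the table summed to 1242 CPM in the 32 Il23r cells of set 2 against 458 CPM in the other cells, with 7 of 9 detected and Tcrg-C2 and Sox13 at 0. In set 1 they summed to 324 CPM against 178 CPM, with 8 of 9 detected and Sox13 at 0. Without the cell richest in these markers, the sums in Il23r cells were 988 CPM in set 2 and 299 CPM in set 1. The listed marker Trdc stood at 340 CPM against 54.4 CPM in set 2, but at 23.9 CPM against 23.6 CPM in set 1. For Il17a and Il17f cells of set 2 the same list summed to 501 and 514 CPM, against 465 and 464 CPM. The T cell list summed to 1142 CPM in the Il23r cells of set 2 against 936 CPM, and to 847 against 778 CPM in set 1. Within it, Cd3e stood at 93.7 against 5.10 CPM in set 2 (6 cells) and Cd3d at 87.9 against 9.13 CPM (3 cells). In set 1 the Il23r cells held Cd3e at 10.6 against 7.23 CPM and Cd3d at 2.66 against 6.85 CPM. The part of gamma delta T cells in these values was not tested. Haemoglobin RNA in the Il23r, Il1r1, Tmem176a and Tmem176b cells of set 1 came mostly from a single cell with 1194 such UMIs.

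Within the axis, Tmem176a and Tmem176b shared most cells. In set 1, 259 cells held both, 53.4% of the Tmem176a cells and 68.9% of the Tmem176b cells, and in set 2 841 cells did, 57.4% and 61.0%. After thinning, Tmem176b was in 24.3% of Tmem176a cells of set 1 against 6.34% of the others, and in 33.6% against 18.2% in set 2. Their overlapping gene ends mean that reads of 1 could be counted for the other, which was not tested.

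Il17a and Il17f shared cells in both sets. In set 2, 15 cells held both, 46.9% of the Il17a cells and 20% of the Il17f cells, whereas 1.73% of cells without Il17a held Il17f. In set 1, 8 cells held both, 32% of the Il17a cells and 12.1% of the Il17f cells. The difference between the sets was not tested.

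Il22 shared cells with the receptors in set 1. Il23r was in 24 of 100 Il22 cells (24%) against 3.88% of the others, and Il1r1 in 26 of 100 (26.0%) against 3.28%. Il17f was in 12 of them and Il17a in 6. Of the 28 Il22 cells of set 2, 0 held Il23r, Il1r1 or Il17a and 1 held Il17f. Among cells of set 2 without Il22, 0.920% held Il23r, 0.833% Il1r1, 0.920% Il17a and 2.13% Il17f. With 28 cells, shares this low cannot be told from 0.

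**Figure D5:**
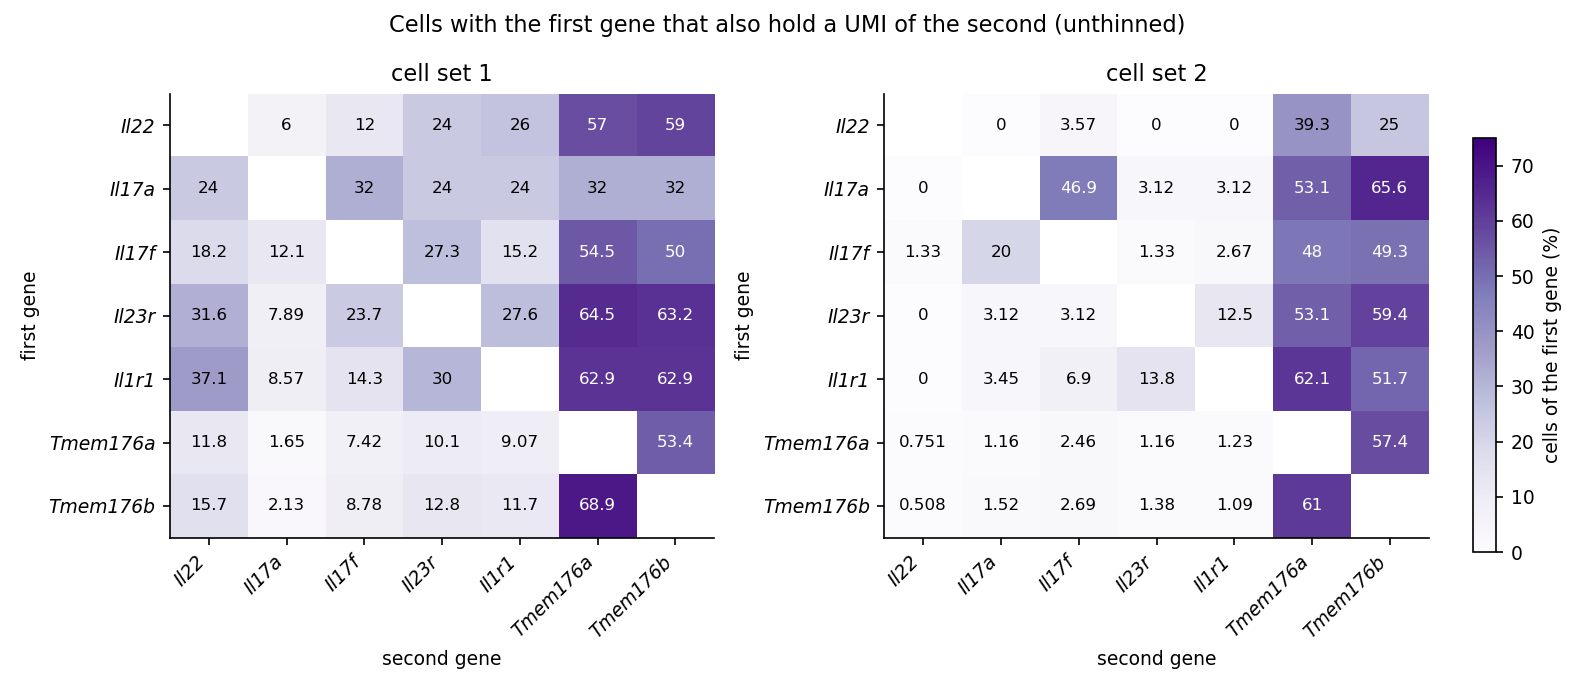
Share (%) of the cells with the gene in each row that also hold the gene in each column, unthinned, for each cell set. In set 1 the Tmem176 columns start at 32% in the Il17a row, where 33.7% and 26.0% of cells without Il17a held Tmem176a and Tmem176b. The Il17a row of set 2 reaches 46.9% for Il17f while its Il22 field is 0, beside 0.806% of cells without Il17a.

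The genes most like each member were ranked by correlation over the thinned cells of a set. Across 3259 cells of set 2, Il17f was the gene most correlated with Il17a (Pearson r of ln(1 + UMIs) 0.25, 8 cells with both), and Tmem176b with Tmem176a (r 0.18, 257 cells). Across 1426 cells of set 1, Cd4 (r 0.34, 12 cells), Dll1 (r 0.33), H2-Aa (r 0.32), Hmgn3 (r 0.31) and Cryaa (r 0.30) ranked highest for Il22. H2-Aa and H2-Ab1 ranked highest for Tmem176b (r 0.32 and 0.31), and Slc15a3 for Il23r (r 0.28). These cells share a library and the counts are sparse, so the values describe these cells and weak ones are no finding.

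Of the 66 genes on the type 3 pathway lists, 61 had at least 20 UMIs. The members Il22, Il17a, Il17f, Il23r and Il1r1 are on these lists and are counted. On the scale of CPM + 10, 9 listed genes were at least 2-fold higher in set 2. The 2 that were at least 2-fold lower were the member Il22 and Socs3. The median log2 ratio of the lists was 0.33, beside 233 higher and 222 lower of 12026 genes and a median of -0.06. The cytokine list held Lta, at 10.8 and 35.3 CPM in the 2 sets, and the surface list held Ccr6 at 24 and 125 CPM, the integrin gene Itgae at 77.1 and 345 CPM and Cxcr6 at 688 and 1496 CPM.

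Among receptors, the IL-1 decoy Il1r2 was at 1.57 CPM in set 1, beside 17.8 CPM in set 2, and Tgfbr1, a receptor of TGF-beta, at 14.5 and 56.5 CPM. Of the transcription factors, Irf4 stood at 5.09 and 26.5 CPM, Tcf7 at 69.7 and 157 CPM and Maf at 176 and 375 CPM. Rora stood at 1715 and 1768 CPM, and Ahr, the aryl hydrocarbon receptor, at 51.2 and 32.9 CPM. Socs3, a feedback inhibitor of STAT3 signalling, was lower in set 2, at 76.9 and 28.0 CPM.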

How the data were processed

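The deposited table holds unscaled UMI counts per gene symbol and cell, as the authors deposited it. The mouse build mm10 and the programs Cell Ranger 3.1.0 and Seurat 4.1.0 are named per the submitters' processing notes. How they were set, strand included, is not given in the sources used here. All members, gene lists, gates and tests were chosen with earlier results of these data known. The table carries no replicates, so no comparison was tested and all intervals cover counting error only.

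From the counts, cells with at most 10% mitochondrial UMIs were kept, UMIs were summed per cell set and given as CPM with exact Poisson intervals, and shares were given Clopper-Pearson intervals. For shares of cells, each cell was thinned at random to 2000 UMIs. The thinning was drawn again after results had been seen: the first scheme thinned kept cells only, and the second thins every deposited cell, so that other cell filters use the same draw. Because overlaps of sparse genes moved between these draws, 10 further draws were added after the data had been seen. Their means are given for part of the values from the single draw. No doublet caller was run and no doublets were removed; an alternative left out the 5% of cells with the most UMIs in each set. Odds ratios had 0.5 added to each count. Named genes were the members, Gata3, Il13, Areg, Rora and Ahr, up to 4 genes of each pathway list with the ratios furthest from 1, the 5 genes most correlated with a member, and markers from the lists. 1 gene that this rule named, and the gate on it, are not reported here. Python 3.11.15, numpy 2.4.6, scipy 1.17.1 and pandas 2.3.3 were used, with edgeR 4.0.16 for TMM totals, and the scripts were tested on simulated data.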

Additional observations from a re-analysis of the deposited data

Results flagged for a closer look

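Some UMIs of the axis genes lay in cells that the limit on mitochondrial UMIs had left out, above the 3 UMIs that a count of 0 allows. In the 30 cells left out of set 1, Il17f had 4 UMIs, all in 1 cell, and Tmem176a had 4 UMIs in 2 cells. In the 267 cells left out of set 2, Il17a had 6 UMIs in 1 cell, Tmem176a had 10 UMIs in 8 cells and Tmem176b had 13 UMIs in 8 cells. With all deposited cells counted, the ratio of set 2 to set 1 was 2.47 for Il17f, 1.98 for Il17a, 2.28 for Tmem176a and 2.65 for Tmem176b.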

How the results depend on the processing

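No paired analysis was possible because each day has 1 library and the cell names carry no replicate number. The direction of all 7 ratios between the sets held under the 7 alternatives run, with 40 of 49 values close to those reported. The ratio of set 2 to set 1 for Il22 was 0.0156 without the 5% of cells with the most UMIs, 0.0175 without cycling cells and 0.0152 over thinned cells. Over 10 further thinning draws together this ratio was 0.0182, with single draws from 0.0170 to 0.0211. Without cycling cells it was 1.97 for Il17f, 1.98 for Tmem176a and 2.19 for Tmem176b, and on the scale of CPM + 10 the Tmem176a ratio was then 1.86, which ends its 2-fold call. With TMM totals it was 2.56 for Tmem176a and 2.96 for Tmem176b, and over thinned cells 0.158 for Il23r. The Gata3 odds ratio in set 1 was 0.431 for Il22 without thinning and 0.413 at 2 Gata3 UMIs. In set 2, without thinning, it was 0.802 for Tmem176b, and at 2 Gata3 UMIs it was 0.748 for Tmem176a and 0.813 for Tmem176b. For Il23r in set 2 it was 0.308 as the mean of 10 other draws, against 1.01 in the draw used. Counting a member as positive at 10 UMIs was an alternative chosen after seeing the data. So were the other draws and the gated levels without the cell richest in the gene. At 10 UMIs the Gata3 odds ratio was 0.142 for Il17a in set 2, from 5 cells. For Il17f in set 1 it was 1.36, from 3 cells, the reverse of the 0.356 in the draw used. The cause of these shifts was not tested. With 40 Il23r and 30 Il1r1 UMIs in set 2, small overlaps of these genes were not resolved there.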
